A study of Homo sapiens with 18 samples.

Results

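KDM2B peaks were separated by the marks of the Polycomb complexes that they carried, and those with H2AK119ub but without H3K27me3 are described here. They were chosen from the deposited peak lists by a rule on 3 of those lists. A KDM2B peak on chromosomes 1 to 22 was kept when it shared at least 1 bp with an H2AK119ub peak and 0 bp with every H3K27me3 peak. The rule found 4081 of 19831 KDM2B peaks, or 20.6% (95% Wilson interval 20.02 to 21.15), covering 3.26 Mb. They are called H2AK119ub-only peaks below, a name that refers to these 2 marks and to no other. Of the remaining KDM2B peaks, 14774 (74.5%) had neither mark, 826 (4.17%) had both and 150 had H3K27me3 without H2AK119ub.

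KDM2B binds unmethylated CpG DNA through its CXXC zinc finger, and it also holds a demethylase domain that acts on H3K36 and H3K4. It brings the non-canonical Polycomb complex ncPRC1.1, with the ligase RING1A or RING1B and the subunit PCGF1, to CpG islands, where the ligase attaches ubiquitin to a lysine of histone H2A. PRC2 writes H3K27me3, can be recruited through H2AK119ub, and is known to be restrained at transcribed, acetylated promoters. A KDM2B site can therefore carry the ubiquitin mark with or without the methyl mark.

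The study profiled chromatin of the triple-negative breast cancer line MDA-MB-231, an established culture of invasive cells, by chromatin immunoprecipitation and sequencing. Its 18 libraries formed 9 groups of 2, in which parental cells were used for KDM2B, MYC, ATF4, H3K4me3, H3K27me3, H2AK119ub and input, and cells with an empty vector (EV) for H3K27ac and a second input. No treatment or gene deletion is named for these groups, and all come from 1 cell line. H3K4me3 and H3K27ac mark active promoters, and H3K27ac active enhancers also. H3K27ac was thus measured in a different stock of cells from the other targets, and what this adds to its overlaps with them was not tested.

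Each of the 6 lists analysed here (the ATF4 list was not used) gives 1 set of peaks for its group, so no value below has a replicate error and depth is unknown. The lists held from 20018 peaks for KDM2B to 306484 for H3K27me3. The fold is the authors' enrichment over background at the summit of a peak, and it ranks peaks only within its own list. All p-values below compare peaks within lists by Fisher's exact test, two-sided, with Benjamini-Hochberg adjustment over the 10 odds ratios of a family, or over 8 on H3K4me3 peaks alone. They cover no variation between libraries, and they are too small because neighbouring peaks are not independent. The labelled line was checked by its markers: the mesenchymal genes VIM, CD44, AXL, CAV1 and EGFR had H3K4me3 and H3K27ac at 5 of 5 starts (H3K27ac folds 61.5 to 104). Luminal and epithelial markers had H3K4me3 at 4 of 6 and H3K27ac at 3 of 6 (5.63 to 15.6), and blood markers had H3K4me3 at 2 of 4, CD3E (11.1) and SPI1 (7.43), and H3K27ac at 0 of 4.

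A group of 552 H2AK119ub-only peaks stood apart from the rest. These lacked H3K4me3, their median KDM2B fold was 2.14 against 3.75 for the 3529 on H3K4me3 peaks, and 65.6% lay over 100 kb from the start of a protein-coding gene. Of the 552, 35.1% combined a fold under 2.5 with a −log10 q over 10, a pairing found in 0.482% of the 3529. An example is chr1:125179593-125180693, with a KDM2B fold of 2.15, a −log10 q of 1155, an H2AK119ub fold of 1.45 and no gene record within 3607704 bp. Chromosome 21 held 84 of them among its 116 H2AK119ub-only peaks. The KDM2B peaks with neither mark were more often far from genes: 93.7% of those without H3K4me3 lay over 100 kb from a gene start, and over all of that class 23.9% did, against 11.3% of the H2AK119ub-only peaks. The pairing of low fold and high q was less frequent there, at 12.04% of those without H3K4me3 and 2.73% of the class, against 5.17% of all H2AK119ub-only peaks. Neither difference was tested. Shares are therefore given over all peaks, within 100 kb of gene starts and on H3K4me3 peaks alone. The part of repeated sequence in the peaks far from genes was not tested.

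Promoters from inside these peaks show the DNA on which KDM2B was found. Each line gives 250 bases before and 50 bases after a gene start in the RefSeq annotation of GRCh38.p14 (the lists use hg38), read 5′ to 3′ along the gene, with every CpG in capitals. The first 4 lie wholly inside an H2AK119ub-only peak and hold no base of an H2AK119ub peak, the fifth lies wholly inside both, and the sixth is a KDM2B gene with neither mark for comparison.
SMAD6, chr15:66701986-66702285, plus strand: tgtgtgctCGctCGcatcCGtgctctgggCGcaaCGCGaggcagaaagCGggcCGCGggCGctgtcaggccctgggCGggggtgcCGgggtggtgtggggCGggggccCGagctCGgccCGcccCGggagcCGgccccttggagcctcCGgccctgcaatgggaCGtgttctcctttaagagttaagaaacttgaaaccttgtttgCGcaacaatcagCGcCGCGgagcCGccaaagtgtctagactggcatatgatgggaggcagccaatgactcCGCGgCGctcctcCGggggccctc
FOS, chr14:75278578-75278877, plus strand: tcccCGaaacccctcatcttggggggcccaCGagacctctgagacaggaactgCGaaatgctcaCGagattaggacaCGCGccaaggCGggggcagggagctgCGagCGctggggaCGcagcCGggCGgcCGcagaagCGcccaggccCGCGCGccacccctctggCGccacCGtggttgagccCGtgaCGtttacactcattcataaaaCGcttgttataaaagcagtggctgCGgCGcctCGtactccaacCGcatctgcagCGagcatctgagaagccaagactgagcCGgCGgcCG
KLF2, chr19:16324576-16324875, plus strand: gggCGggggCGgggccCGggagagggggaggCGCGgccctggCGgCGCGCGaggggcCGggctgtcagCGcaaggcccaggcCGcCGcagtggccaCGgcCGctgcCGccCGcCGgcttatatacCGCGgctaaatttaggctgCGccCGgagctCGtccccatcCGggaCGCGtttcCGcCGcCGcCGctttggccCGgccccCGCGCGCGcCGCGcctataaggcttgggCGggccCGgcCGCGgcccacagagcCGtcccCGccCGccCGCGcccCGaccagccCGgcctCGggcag
SLC7A6, chr16:68264276-68264575, plus strand: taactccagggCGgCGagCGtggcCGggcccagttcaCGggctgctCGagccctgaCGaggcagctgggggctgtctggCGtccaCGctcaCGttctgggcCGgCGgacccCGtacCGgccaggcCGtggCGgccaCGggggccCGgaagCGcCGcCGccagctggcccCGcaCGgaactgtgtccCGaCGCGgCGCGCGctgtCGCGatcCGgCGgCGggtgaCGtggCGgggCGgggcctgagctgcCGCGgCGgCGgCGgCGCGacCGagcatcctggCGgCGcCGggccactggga
LAMA5, chr20:62367263-62367562, minus strand: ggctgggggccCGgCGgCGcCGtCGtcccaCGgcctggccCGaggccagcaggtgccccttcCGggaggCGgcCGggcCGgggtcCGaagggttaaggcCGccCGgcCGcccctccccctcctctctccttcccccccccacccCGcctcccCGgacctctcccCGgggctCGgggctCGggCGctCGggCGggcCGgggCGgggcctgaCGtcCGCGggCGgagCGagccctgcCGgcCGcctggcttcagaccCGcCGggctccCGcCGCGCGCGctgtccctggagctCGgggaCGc
AARS1, chr16:70289457-70289756, minus strand: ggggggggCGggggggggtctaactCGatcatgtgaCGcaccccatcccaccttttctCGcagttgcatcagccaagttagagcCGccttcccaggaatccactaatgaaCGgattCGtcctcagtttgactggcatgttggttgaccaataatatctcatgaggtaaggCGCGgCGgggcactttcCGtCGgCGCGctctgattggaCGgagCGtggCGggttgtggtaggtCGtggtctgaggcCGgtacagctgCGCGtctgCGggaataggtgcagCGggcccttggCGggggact

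These 300 bases held 29 CpGs at SMAD6, an inhibitor of BMP signalling, 30 at the immediate early gene FOS, 49 at KLF2, a transcription factor, 48 at the amino acid transporter gene SLC7A6 and 41 at LAMA5, which encodes a laminin chain. AARS1, the alanyl-tRNA synthetase gene, had 24. KDM2B peaks covered 25 of its 300 bases and MYC peaks 245. Over all genes with a known start, 414 promoters of this length lay wholly inside an H2AK119ub-only peak. H2AK119ub peaks held no base of 285 of them, part of 100 and the whole of 29. The peaks were thus chosen for sharing sequence with H2AK119ub, yet at most of these promoters the shared part lay outside the 300 bases.

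The first comparison asked whether H2AK119ub-only peaks carry MYC and the marks of active promoters. MYC overlapped 91.8% of them (95% Wilson interval 90.9 to 92.6), H3K4me3 86.5% (85.4 to 87.5) and H3K27ac 76.9% (75.6 to 78.2), against 81.8%, 78.4% and 74.2% of all KDM2B peaks. All 3 were present at 3084, or 75.6%, against 72.5% of all KDM2B peaks. A further 344 had MYC and H3K4me3 without H3K27ac, 306 had MYC alone and 226 had none of the 3. The peaks with all 3 had a median KDM2B fold of 3.90, those with MYC and H3K4me3 but no H3K27ac 3.13, and those with MYC alone 2.01.

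Against KDM2B peaks with both Polycomb marks, the H2AK119ub-only peaks had each active feature more often. H3K27ac was at 19.0% of peaks with both marks (odds ratio 14.2, 95% interval 11.8 to 17.2; exact test, adjusted p = 1.78e-218), and MYC at 66.0% (5.77, 4.80 to 6.92; adjusted p = 9.79e-74). H3K4me3 was at 66.5% (3.23, 2.72 to 3.82; exact test, adjusted p = 2.40e-38) and all 3 together at 16.5% (15.7, 12.9 to 19.1; adjusted p = 1.44e-226). H3K27ac and H3K27me3 modify the same lysine, so this contrast is not independent of the choice of peaks by H3K27me3. On H3K4me3 peaks alone, H3K27ac was at 88.4% of H2AK119ub-only peaks and 25.7% of those with both marks (odds ratio 22.1, 17.8 to 27.4; exact test, adjusted p = 1.27e-202).

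Against KDM2B peaks with neither mark, the direction depended on which peaks were compared. Over all peaks, MYC was at 80.3% of the class with neither mark (odds ratio 2.74, 2.43 to 3.08; exact test, adjusted p = 1.03e-74) and H3K4me3 at 77.3% (1.88, 1.70 to 2.07; adjusted p = 4.77e-40). H3K27ac (77.1%; odds ratio 0.988, 0.910 to 1.07) and the 3 together (75.4%; 1.01, 0.933 to 1.096) did not pass the exact test, both with an adjusted p of 0.805. Among peaks within 100 kb of a gene start every one of these odds ratios was below 1. MYC was then at 94.8% of H2AK119ub-only peaks and 97.6% of those with neither mark (odds ratio 0.454, 0.376 to 0.549; exact test, adjusted p = 3.57e-15). H3K4me3 was at 94.7% and 98.1% (0.343, 0.281 to 0.419; exact test, adjusted p = 2.66e-24), and H3K27ac at 84.4% and 96.4% (0.203, 0.177 to 0.231; adjusted p = 1.48e-120). On H3K4me3 peaks alone H3K27ac was at 88.4% and 98.0% (0.156, 0.132 to 0.184; exact test, adjusted p = 1.02e-109), and MYC at 97.1% and 99.1% (0.306, 0.232 to 0.404; adjusted p = 5.23e-16). These odds ratios became 0.132 and 0.281 within classes of KDM2B fold and width. Near genes, H2AK119ub-only peaks therefore had H3K27ac more often than peaks with both marks and less often than peaks with neither.

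**Figure D1:**
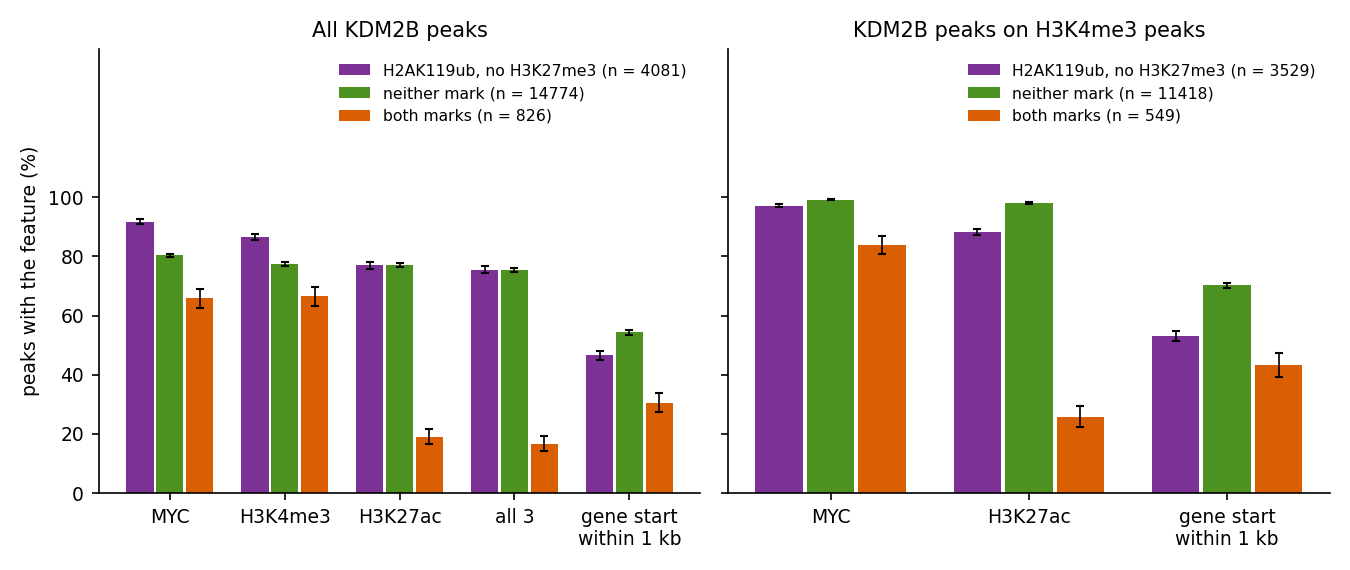
Share of KDM2B peaks (vertical axis, percent) with MYC, H3K4me3, H3K27ac, all 3 of these, or a protein-coding gene start within 1 kb, for peaks with H2AK119ub but no H3K27me3, with neither mark and with both; bars are shares and lines 95% Wilson intervals. Over all peaks (left) H3K27ac was at 76.9%, 77.1% and 19.0% of the 3 classes, and on H3K4me3 peaks (right) at 88.4%, 98.0% and 25.7%.

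The enrichment at the peaks of the other lists followed the same order. For KDM2B peaks on H3K4me3, the highest MYC fold overlapping an H2AK119ub-only peak had a median of 9.62 over 3428 peaks with MYC, against 13.0 with neither mark and 4.35 with both. The median H3K27ac fold was 16.1 against 29.8 and 3.49, and the median H3K4me3 fold 39.1 against 45.3 and 19.9. The median MYC fold over all KDM2B peaks on H3K4me3 with MYC was 11.9. A fold above it was found at 37.2% of H2AK119ub-only peaks with MYC and at 55.9% of those with neither mark (odds ratio 0.467, 0.432 to 0.505; exact test, adjusted p = 3.91e-82). The share was 5.64% of those with both marks (9.90, 6.62 to 14.8; exact test, adjusted p = 1.05e-51). For H3K27ac above 26.9 the shares were 34.1%, 55.1% and 4.26%, and for H3K4me3 above 43.6 they were 37.6%, 56.2% and 5.28%. All 6 of these differences passed the exact test, adjusted over the 10 tests added after the data were seen. The H3K4me3 peaks under H2AK119ub-only peaks were nonetheless wider, with a median of 7488 bp against 6492 bp with neither mark and 3869 bp with both, a difference that was not tested. The widest H3K4me3 peak was taken for each KDM2B peak, so 1 that holds several KDM2B peaks counted several times. On H3K4me3, 54.2%, 45.2% and 33.7% of the 3 classes had another KDM2B peak within 3 kb.

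H2AK119ub-only peaks were most frequent among the strongest KDM2B peaks. With all 19831 peaks ranked by KDM2B fold in 10 classes of equal size, they made up 36.6% of the highest class (fold 5.12 or above), 24.5% of the ninth and 15.2% of the sixth. In the lowest class they were 22.8%, of which 319 of 453 lacked H3K4me3. The highest class held 725 of them, and only 3 lacked H3K4me3. Among KDM2B peaks on H3K4me3 alone the share fell from 40.1% in the lowest class to 15.8% in the sixth and seventh and reached 36.6% in the highest. The lowest class held 334 such peaks and the highest 1974. These shares are a description, since KDM2B peaks were part of the rule. The H2AK119ub-only peaks were also wider, with a median of 585 bp against 365 bp with neither mark and 344.5 bp with both, and a wider peak can meet another list by its length alone.

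**Figure D2:**
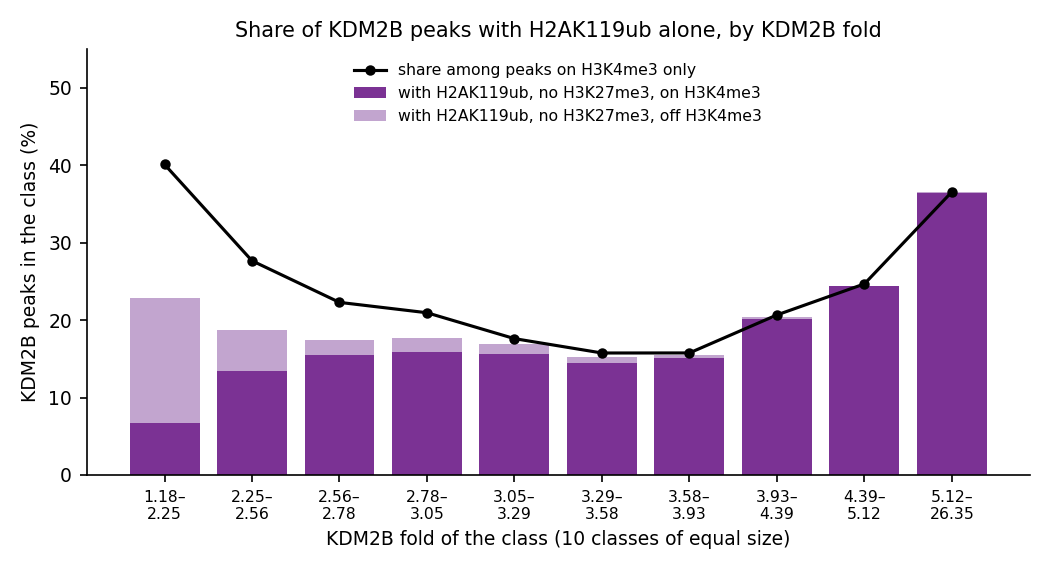
Share of KDM2B peaks with H2AK119ub but no H3K27me3 (vertical axis, percent) in 10 classes of KDM2B fold (horizontal axis); bars divide them into peaks on and off H3K4me3, and the line gives the share among peaks on H3K4me3 alone. The share was 15.2% in the sixth class and 36.6% in the highest, and peaks off H3K4me3 were mostly in the lowest classes, with 319 in the first and 105 in the second.

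At a part of the H2AK119ub-only peaks, H2AK119ub was called several kilobases from the KDM2B summit. At others little was called around it, and the lower quartile of cover within 5 kb either side was 1201 bp. H2AK119ub peaks covered a median of 298 bp of an H2AK119ub-only peak, and the median of the share covered was 64.4%. The summit lay inside an H2AK119ub peak in 67.2%, and 20.6% lay inside entirely. Within 5 kb either side of the summit, H2AK119ub covered a median of 3650 bp where the peak was on H3K4me3 and 1110 bp where it was not. Of the 3529 on H3K4me3, H2AK119ub was called in the 100 bp bin beside the summit in 68.0%, at 0.95 kb on the side of higher coordinates in 45.4% and at 4.95 kb in 37.4%. Peaks with neither mark had it at 9.90% at the same 4.95 kb. The spike at the summit is built in by the rule, while the flanks were free to vary. Such flanks can hold the same broad domain that the rule selected, so no test of them was made.

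H3K27me3 was often near. The nearest H3K27me3 peak was a median of 17957 bp away over all H2AK119ub-only peaks, and within 10 kb for 39.7% of them and within 2 kb for 14.7%. Among peaks with neither mark it lay within 10 kb for 21.0% and within 2 kb for 4.10%. Peaks also clustered: 54.5% of the H2AK119ub-only peaks had another KDM2B peak within 3 kb, against 42.9% with neither mark. At the edges of the rule, the smallest overlap with H2AK119ub was 1 bp, at ASCL5 (KDM2B fold 4.20), RPL8 (5.30) and CGN (6.15). Just outside it, KDM2B peaks with H2AK119ub missed the choice through 15 bp of H3K27me3 at SCN4B (3.21), 18 bp at TMOD1 (5.01) and 19 bp inside JAK3 (2.45).

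**Figure D3:**
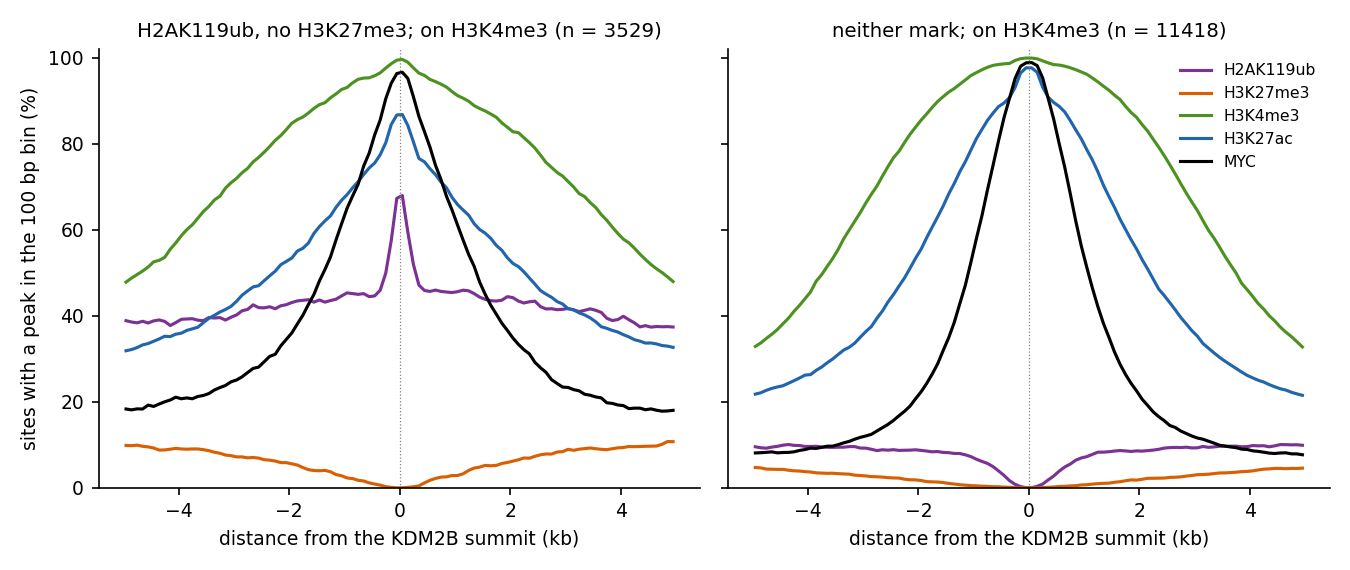
Share of KDM2B peaks on H3K4me3 (vertical axis, percent) with a peak of each other list in bins of 100 bp by distance from the KDM2B summit (horizontal axis, kb); left, 3529 peaks with H2AK119ub but no H3K27me3, right, 11418 with neither mark. H2AK119ub stayed at 37.4% at 4.95 kb on the left and 9.90% on the right, and MYC was at 96.7% and 98.9% beside the summit.

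Fewer H2AK119ub-only peaks than peaks with neither mark lay at gene starts. A protein-coding gene start was within 1 kb of 1899, or 46.5%, against 51.4% of all KDM2B peaks, 54.3% of those with neither mark (odds ratio 0.733, 0.683 to 0.785; exact test, adjusted p = 2.46e-18) and 30.6% of those with both (1.97, 1.68 to 2.31; adjusted p = 2.37e-17). On H3K4me3 peaks alone the shares were 53.1%, 70.2% (odds ratio 0.482, 0.446 to 0.520; exact test, adjusted p = 1.34e-75) and 43.2% (1.49, 1.24 to 1.79; adjusted p = 1.54e-05). By the nearest known start and its strand, 12.9% of the H2AK119ub-only peaks on H3K4me3 had their summit 0 to 0.3 kb downstream, against 26.5% of those with neither mark. From 1 to 10 kb downstream, the shares were 17.3% and 8.71% (odds ratio 2.19, 1.959 to 2.45; exact test, adjusted p = 7.92e-41), and 10.1% with both marks (1.86, 1.38 to 2.50; adjusted p = 1.94e-05). Over 10 kb from any known start they were 39.3%, 27.6% (1.69, 1.56 to 1.83; exact test, adjusted p = 1.83e-36) and 55.2% (0.524, 0.435 to 0.630; adjusted p = 8.49e-12). These position shares cover 3393, 10978 and 525 peaks, without chromosome 8, which has no known start here. A peak at a gene without a known start could count as distant in them. With record ends standing in for such starts, the upper quartile of the distance from peak to start was 10931, 2154 and 32314 bp.

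At the genes themselves H2AK119ub peaks were called more often downstream of the start than upstream. Around the starts of 1416 genes with an H2AK119ub-only peak and a known start, KDM2B was most frequent 250 bp downstream, at 76.6%. H2AK119ub was called at 11.7% in the bin 50 bp upstream, rose to 55.9% at 650 bp downstream and was at 29.2% at 950 bp upstream. MYC was at 89.9% of the starts and H3K27ac at 80.0%. Around the starts of 5900 genes with KDM2B and no Polycomb mark, H2AK119ub was at most 6.68%, while KDM2B was again most frequent 250 bp downstream, at 77.0%. At the 1416 genes KDM2B was also broader: it was at 52.6% at 950 bp downstream, against 18.4% at the 5900. These genes were chosen for H2AK119ub that overlaps a KDM2B peak near the start, and KDM2B was itself at 21.9% at 950 bp upstream, so the height and in part the position of the H2AK119ub curve follow from the choice.

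**Figure D4:**
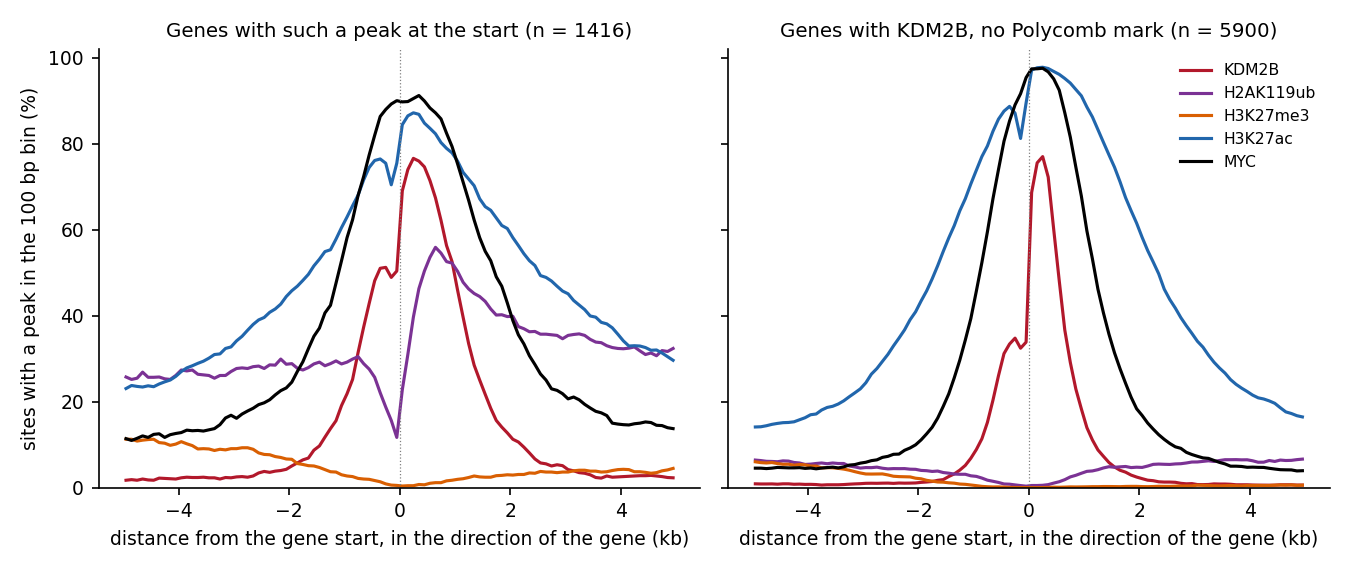
Share of genes (vertical axis, percent) with a peak of each list in bins of 100 bp by distance from the gene start, downstream to the right (horizontal axis, kb); left, 1416 genes with a KDM2B peak with H2AK119ub but no H3K27me3 at the start, right, 5900 genes with KDM2B and neither mark. H2AK119ub on the left was lowest just upstream of the start, at 11.7%, and highest at 55.9% in the bin 650 bp downstream.

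Counted over genes, 1870 of 19126 protein-coding genes had an H2AK119ub-only peak at the start, which is 9.78% of all and 20.5% of the 9140 with KDM2B there. Of the 1870, 1416 had a known start. The others were matched at either end of the gene record, so some of their peaks may lie at the far end of the gene. A second KDM2B peak with neither mark was also at the start of 510 of the 1870, and a peak with both marks at 22. The highest KDM2B folds were 10.5 at IRF2BPL (chr14:77025287-77028762), where H2AK119ub covered 79.2% of the peak, and 10.0 at ABHD6, which encodes a lipase of monoacylglycerols and had 28.5% of the peak covered. A peak shared by FAM43A and LOC124909474 had 9.93. SMAD6 had 9.62 in a peak of 3137 bp, with a MYC fold of 20.4. A peak shared by EME2, MRPS34 and NME3 had 9.48, and GFPT2, an enzyme at the entry of the hexosamine pathway, had 9.38. SPTBN1, a spectrin gene, followed with 9.18 and only 205 bp of H2AK119ub within 5 kb, then ABHD15 and TP53I13 with 9.17. EPAS1, which encodes the hypoxia factor HIF-2α, and FAM89A both had 8.91, the septin gene SEPTIN9 8.69 and PLEKHA7, a protein of adherens junctions, 8.59. MYC, H3K4me3 and H3K27ac peaks overlapped all 12 of these peaks, and all 3 were at 89.2% of the 1899 H2AK119ub-only peaks at gene starts. The H3K27ac folds of the 12 ran from 3.40 at PLEKHA7 to 58.6 at SEPTIN9.

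A protein-coding gene start was within 1 kb of 1899 of the 4081 H2AK119ub-only peaks and of 8022 of the 14774 with neither mark. In the class with neither mark, 11418 peaks were on H3K4me3, and 8014 of these were at such a start. H3K4me3 away from starts was not tested between the classes. Of the other H2AK119ub-only peaks, those away from coding starts, 1654 were on H3K4me3. Inside a coding gene lay 1114, and 194 were within 1 kb of the known start of a non-coding gene. The strongest, at chr16:75263869-75266984 inside BCAR1, an adaptor of integrin signalling, had a KDM2B fold of 10.98 and lay 1023 bp from the nearest start used here. The next 5 had folds from 9.46 to 9.81 and lay in the pseudogenes LOC727751 and LOC124904397, inside CORO2B, and in the non-coding LINC01138 and SNX10-AS1. Where a gene is also transcribed from a start inside its record, that start was not seen here. Some genes held many peaks. LFNG, which glycosylates Notch, had 10, of 11 KDM2B peaks inside it, BAIAP2 and the plectin gene PLEC 9 each, the H3K4 methyltransferase gene SETD1B 8 and ADAP1 8. H2AK119ub covered 85.6% of LFNG with 1 kb around it and H3K27me3 covered 0 bp. All 10 of its peaks carried MYC and H3K27ac, which were at 91.8% and 76.9% of all H2AK119ub-only peaks. In contrast, 16554 genes held no H2AK119ub-only peak and 1974 held 1.

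The 6 peaks with the widest H2AK119ub around them had KDM2B folds below the median of 3.47 over all H2AK119ub-only peaks. H2AK119ub covered from 9818 bp to the whole of the 10001 bp around their summits, while the KDM2B fold was from 2.10 to 3.20. They lay inside MEGF6 and MAB21L4, at RHPN1, and nearest to MUC5AC, FOXS1 and TBKBP1. H3K27ac was called at 2 of them, near FOXS1 (5.30) and near TBKBP1 (2.95), against 76.9% of all H2AK119ub-only peaks. MYC was called at all 6, against 91.8% of all H2AK119ub-only peaks. Its folds ran from 2.41 inside MAB21L4 to 5.90 near FOXS1 and 9.13 near TBKBP1. The last was above the median of 8.89 over H2AK119ub-only peaks with MYC. The nearest H3K27me3 peak was between 148 and 2748 bp away.

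Gene lists drawn up from general knowledge were then read against the 20.5% of KDM2B genes that had an H2AK119ub-only peak. Genes without a known start were again matched at either end of the record. No enrichment test was made, since the lists and the rule were chosen with earlier results known. The 4 highest shares among lists with at least 5 KDM2B genes were those of developmental factors, immediate early genes, WNT genes and AP-1 factors, and differences between lists were not tested. Among immediate early genes outside the AP-1 family, 17 of 25 with KDM2B had such a peak, and their median KDM2B fold was 5.72, against 4.39 over all 1870 genes. The strongest were IER5L (8.35), ZFP36 (7.90), ZFP36L2 (7.20) and KLF2 (6.01). ZFP36 and ZFP36L2 encode proteins that destabilise messenger RNA. All 17 had MYC and H3K27ac, which were at 98.3% and 89.7% of all H2AK119ub-only peaks at gene starts. The median H2AK119ub cover within 5 kb was 1332 bp, against 2623 bp over the 1870. Of the AP-1 factors 8 of 14 had one, led by FOS (8.19), JUNB (7.41), JUN (7.36) and FOSL2 (5.58). FOSL1 has no known start here, and its peak lay 850 bp from an end of its record. It had a KDM2B fold of 2.66 and the highest H3K27ac fold of the group, at 120. Of the KLF and SP factors 8 of 16 had one, led by SP5 (6.98), with KLF2, KLF6 (5.58) and KLF4 (5.19) counted among immediate early genes also.

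Developmental transcription factors had KDM2B peaks at the starts of 21 of 82 genes, against 9140 of all 19126 protein-coding genes. An H2AK119ub-only peak was included at 15 of the 21. MSX2 had a KDM2B fold of 6.12, IRX5 6.10, IRX3 5.93 and NKX2-1 5.73. The nearest H3K27me3 peak was a median of 7459 bp from these peaks, against 17282 bp over the 1870 genes, and 1233 bp at NKX2-1. H3K27ac was called at all 15, against 89.7% of all H2AK119ub-only peaks at gene starts. Its fold was 62.0 at FOXA2, whose peak lay 652 bp from an end of a record without a known start, and 5.07 at NKX2-1. HOX genes had KDM2B at 4 of 39 and an H2AK119ub-only peak at HOXB9 (5.14) and HOXD4 (4.53). Among WNT ligands, receptors and inhibitors the count was 13 of 22. FZD5, a WNT receptor, had 7.60, AXIN2, a feedback inhibitor, 7.11, and the ligand genes WNT7B 6.75 and WNT11 6.28. The median MYC fold of this group was 7.83, against 10.9 over the 1870 genes, and WNT4 had no H3K27ac.

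**Figure D5:**
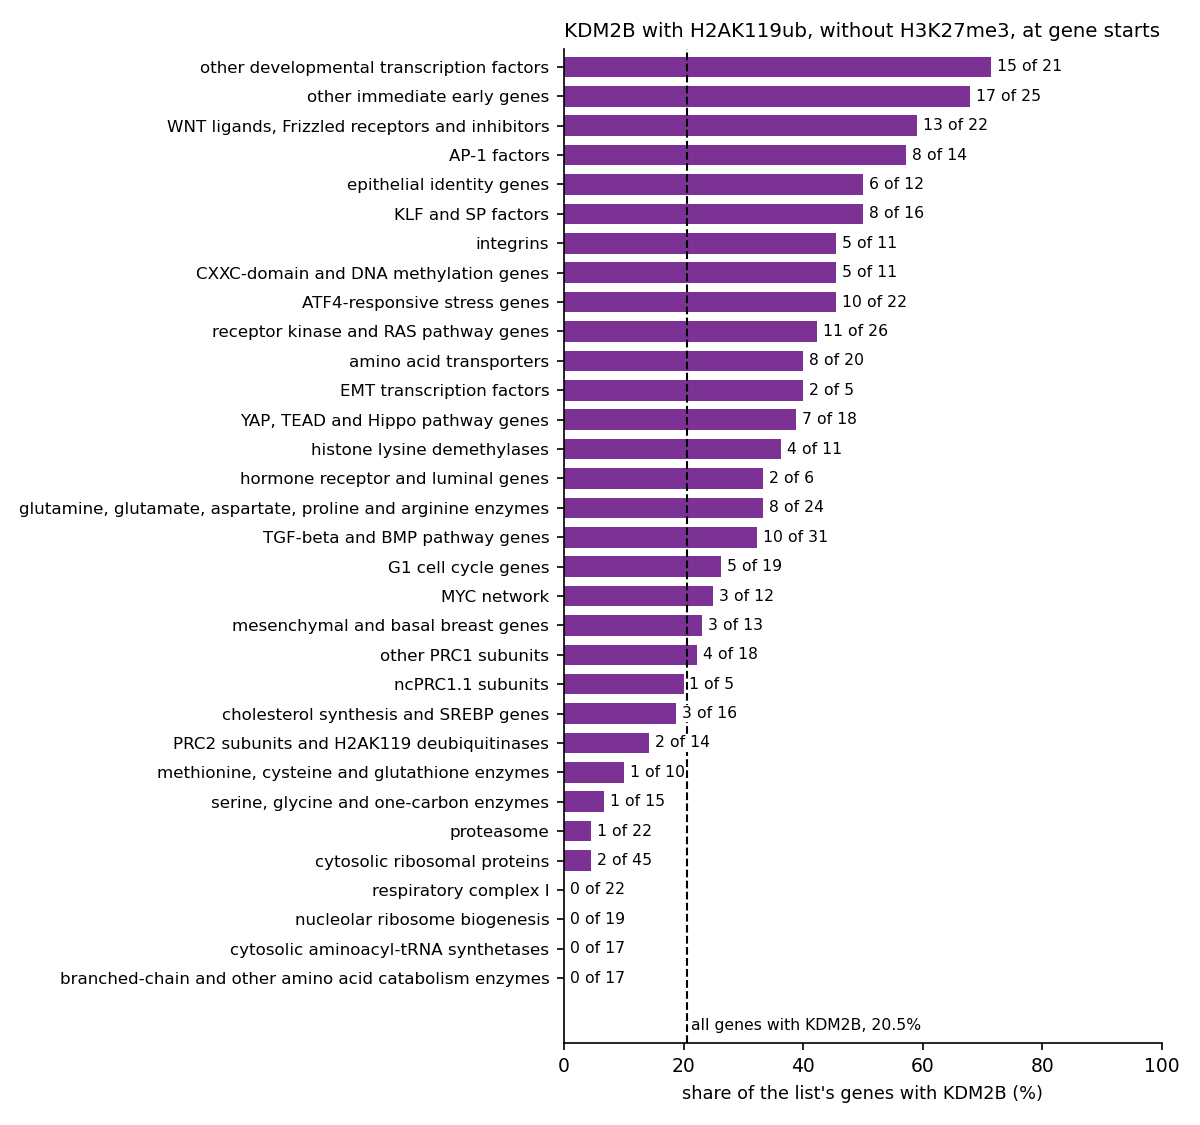
Share of the genes with KDM2B at the start that had a KDM2B peak with H2AK119ub but no H3K27me3 there (horizontal axis, percent), for lists with at least 5 such genes (vertical axis); counts stand beside the bars and the dashed line marks the 20.5% of all genes with KDM2B. Developmental factors (15 of 21) and immediate early genes (17 of 25) stand at the top, and 4 lists have a count of 0.

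Other signalling and adhesion genes had lower shares than the WNT list, all above the background. Of genes of TGF-beta and BMP signalling, 10 of 31 had an H2AK119ub-only peak, led by SMAD6, LTBP3 (6.42), which encodes a latent TGF-beta binding protein, the ligand gene TGFB1 (6.15) and ID1 (5.83). Of receptor kinase and RAS genes it was 11 of 26, with the insulin receptor gene INSR at 7.60, EGFR at 6.70, EPHA2 at 6.46 and RRAS at 6.11. EGFR carried an H3K27ac fold of 81.1 and 849 bp of H2AK119ub within 5 kb, whereas FGFR3 had no H3K27ac and 8779 bp of H2AK119ub. Of Hippo pathway genes it was 7 of 18, led by AMOTL2 (5.50), AMOTL1 (5.20), STK3 (5.15) and AJUBA (5.14). Of integrins it was 5 of 11, namely ITGA6 (5.73), ITGA3 (4.20), ITGB1 (4.15), ITGB4 (4.11) and ITGB3 (3.88).

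Lists of cell identity gave 6 of 12 for epithelial genes, 2 of 6 for hormone receptor and luminal genes and 3 of 13 for mesenchymal and basal genes. The epithelial genes were EPCAM (5.17), KRT19 (3.76), CLDN3 (3.74), ESRP2 (3.34), SPINT1 (2.86) and CLDN7 (2.50), and H3K27ac was called at 4 of the 6, not at CLDN3 or SPINT1. The luminal genes were ERBB3 (5.86) and MLPH (4.72), and the mesenchymal genes EGFR, CCN2 (4.47) and PLAU (3.64). EMT factors gave 2 of 5, SNAI1 (4.58) and SNAI3 (2.73). G1 cell cycle genes gave 5 of 19, with the inhibitor genes CDKN1A (6.36) and CDKN1C (5.52) beside E2F8 (6.28), CCND1 (4.03) and E2F2 (3.87).

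Amino acid metabolism is named in the title of the study, and its genes as a whole were near the background. Over 5 lists of enzymes and transporters, 18 of 86 genes with KDM2B, or 20.9%, had an H2AK119ub-only peak, and the lists differed among themselves. Of transporters it was 8 of 20. SLC43A1 had a KDM2B fold of 7.15, the taurine carrier SLC6A6 6.26, SLC7A6 5.74 and the neutral amino acid carrier SLC1A4 5.46. SLC25A22, a mitochondrial glutamate carrier, had 5.36, the glycine carrier SLC6A9 5.17, SLC7A5, a carrier of large neutral amino acids, 4.11 and the glutamine carrier SLC1A5 3.54. All 8 had MYC and H3K27ac, against 98.3% and 89.7% of all H2AK119ub-only peaks at gene starts. Their median MYC fold was 24.1.

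Enzymes that make or break down glutamine and its relatives glutamate, proline, arginine and aspartate gave 8 of 24. NAGS, which makes N-acetylglutamate, had 8.25, and GAD1, which makes GABA, 7.51. ODC1, which makes putrescine, had 6.01 with a MYC fold of 56.9. The glutamine synthetase gene GLUL had 5.94, the argininosuccinate synthase gene ASS1 5.30, the proline synthesis gene PYCR1 4.03, ABAT, which degrades GABA, 3.53, and the glutaminase gene GLS2 3.20. H3K27ac was called at 6 of the 8 and not at ABAT or GLS2, and ABAT also lacked MYC. The nearest H3K27me3 peak was 314 bp from that of ABAT and 1821 bp from that of GLS2. Serine, glycine and 1-carbon enzymes gave 1 of 15, MTHFD1 (2.63), methionine, cysteine and glutathione enzymes 1 of 10, AHCYL1 (4.98), and catabolic enzymes 0 of 17.

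Of stress genes that respond to ATF4, 10 of 22 with KDM2B had an H2AK119ub-only peak. SQSTM1, an autophagy receptor gene, had 8.57, SESN2 7.21, PMAIP1, which encodes the apoptosis factor NOXA, 6.40, and DDIT4, an inhibitor of mTORC1, 5.52. All 10 had MYC and H3K27ac, against 98.3% and 89.7% of all H2AK119ub-only peaks at gene starts.

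Genes of the Polycomb system and of CpG binding were examined as possible targets of their own complex. Of ncPRC1.1 subunits with KDM2B at the start it was 1 of 5, CBX8 (3.75). Of other PRC1 subunits it was 4 of 18, among them CBX6 (4.17), CBX2 (3.62) and FBRSL1 (2.88), and of PRC2 subunits and H2AK119 deubiquitinases 2 of 14, EPOP (5.98) and LCOR (3.58). CXXC-domain and DNA methylation genes gave 5 of 11, namely CXXC5 (6.03), TET3 (4.05), KMT2B (3.72), DNMT3A (3.43) and UHRF1 (3.18). Histone lysine demethylases gave 4 of 11, with RIOX1 (5.73), PHF2 (4.31), KDM4B (3.52) and KDM6B (2.53). The MYC network gave 3 of 12, and among them MYC itself had a KDM2B fold of 6.92, an H3K27ac fold of 43.2 and its nearest H3K27me3 peak 54589 bp away, followed by MYCL (5.90) and MXD3 (3.90).

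Several housekeeping lists had KDM2B at many of their genes and few H2AK119ub-only peaks. KDM2B was at the start of 17 of 20 aminoacyl-tRNA synthetase genes, 19 of 25 nucleolar genes and 22 of 34 complex I genes. It was at 22 of 31 proteasome and 45 of 56 ribosomal protein genes, against 9140 of all 19126 protein-coding genes. Cytosolic aminoacyl-tRNA synthetases gave 0 of 17, nucleolar ribosome biogenesis genes 0 of 19 and respiratory complex I 0 of 22. The proteasome gave 1 of 22, PSMA7 (4.70), and cytosolic ribosomal proteins 2 of 45, RPL8 and RPS2 (3.70). Cholesterol synthesis and SREBP genes, at 3 of 16, were near the background, among them TM7SF2 (5.63) and MVD (5.43). Haematopoietic genes, which mark cells that are not in this line, had KDM2B at 1 of 14 and an H2AK119ub-only peak at 0.

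Promoters of genes with an H2AK119ub-only peak were rich in CpG. Over 1416 promoters of 300 bases, the median GC content was 72.3% (quartiles 65.7 to 77.3) with a median of 33 CpGs. The 5900 promoters with KDM2B and no Polycomb mark had 66.7% and 28 CpGs, the 146 with KDM2B and both marks 70.3% and 30, and the 3084 with H3K4me3 but no KDM2B 61.0% and 20. The ratio of observed to expected CpG was 0.857, 0.870, 0.830 and 0.752 in that order. The first group was thus below the second in this ratio, with more CpGs and a higher GC content, and above the other two. SLC7A6 and KLF2, printed above, stood well above the median with 48 and 49 CpGs.

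Motifs were searched on both strands of the same promoters. The E-box CACGTG, bound by MYC and MAX, was in 8.97% of promoters with an H2AK119ub-only peak, 11.1% with KDM2B and no mark and 8.77% of all 15101. TGCGCA, a part of the NRF1 site, was in 9.68%, 15.5% and 10.6%. The AP-1 motif TGANTCA was in 3.60%, 3.63% and 5.70%, and TGATGNAA, the core of the ATF4 element, in 0.565%, 1.27% and 2.56%. Of these motifs, TGCGCA occurs once in the printed promoter of SMAD6 and TGATGNAA once in that of AARS1, and the other 4 printed promoters hold none of them. These are counts of letters in short windows and were not tested.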

How the data were processed

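Libraries were grouped by antibody and cell stock as their titles give them, and the labels do not say if these were separate cultures. Chromatin was digested with an enzyme, per the labels' protocols. Reads were processed with Trim Galore, SAMtools 1.6, Bowtie2 2.4.5 and, for peaks, MACS2 2.2.7.1 on build hg38, per the submitters' processing notes. The control of each list, and whether libraries were pooled, are not given in the sources used here. The deposited fold is a ratio of signal to background at each summit, the −log10 q-value is that of the authors' peak caller, and the deposited lists also give the summit's offset from the peak's start. Read counts are not part of these lists, so depth and the precision it gives are unknown.

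The members and gene lists were chosen with earlier results of these data known. Overlap meant at least 1 bp. Genes were the 19126 protein-coding records of RefSeq (GRCh38.p14) on chromosomes 1 to 22. A start came from the RefSeq promoter table for 15101 of them. For the other 4025, which include all 715 of chromosome 8, both ends of the record stood in for it, and a gene counted when a peak came within 1 kb. The design named gene ends, or starts if strand was given. Shares have 95% Wilson intervals and odds ratios 95% Woolf intervals, tested by Fisher's exact test (scipy 1.17.1). Odds ratios within 10 classes of KDM2B fold by 2 of width are Mantel-Haenszel estimates (statsmodels 0.14.6). The scripts were tested on simulated data. Where several genes could be named, the 12 strongest peaks at starts, the 6 strongest elsewhere, the 6 genes with most peaks, the 6 of widest H2AK119ub, the 3 peaks either side of the rule and up to 4 genes per list were taken, all genes of amino acid and ncPRC1.1 lists, and all of any count of 5 or fewer. A few genes and 1 list that this rule names are not reported here. Further names were chosen after their values were seen.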

Additional observations from a re-analysis of the deposited data

How the results depend on the processing

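No paired analysis was possible because each group has 1 deposited list and no values per library, although the labels share replicate numbers, and for the same reason no library could be left out. The odds ratios for a gene start kept their direction and side of the threshold in all 20 settings, from 0.437 to 0.916 against KDM2B peaks with neither mark and from 1.15 to 2.55 against those with both. Against both marks, MYC (1.86 to 7.36), H3K27ac (2.93 to 24.2) and all 3 active features together (2.89 to 24.01) did so in all 16. H3K4me3 against both marks turned to 0.976 (exact test, adjusted p = 0.761) with no H3K27me3 allowed within 10 kb.

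Against neither mark, MYC was 0.454 within 100 kb of a gene start, 0.306 on H3K4me3 peaks and 0.281 on these within classes of fold and width, and H3K4me3 was 0.343 within 100 kb. These settings, and that of fold 2.5 or above, were added after the data were seen. H3K27ac and all 3 together, both near 1 over all peaks, were 0.203 and 0.214 within 100 kb, 0.156 and 0.177 on H3K4me3 peaks, and 0.132 and 0.148 on these within classes. Below 1 they were also 0.607 and 0.613 by summits, 0.609 and 0.614 with at least 50% of the peak covered, and 0.798 and 0.815 with H2AK119ub of q under 1e-05. They were 0.875 and 0.895 with H3K27me3 of q under 1e-05, 0.900 and 0.873 with the active lists at that q, and 0.835 and 0.838 within classes. All 3 together came to 0.934 at fold 2.5 or above (exact test, adjusted p = 0.219). Above 1 they were 1.16 and 1.18 with no H3K27me3 within 2 kb, 1.29 and 1.32 within 10 kb, 1.19 and 1.21 with 1 peak per cluster, and 1.26 and 1.30 with broad marks merged across 3 kb. The cause of these turns was not tested.

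The number of H2AK119ub-only peaks ranged from 2449 with H2AK119ub of q under 1e-05 to 4812 with broad marks merged, and was 2461 with no H3K27me3 within 10 kb and 2516 with at least 50% covered. The genes with one at the start numbered 896 with at least 50% covered, 1000 with H2AK119ub of q under 1e-05, 1101 by summits and 1136 with no H3K27me3 within 10 kb. The share of summits inside H2AK119ub was 55.2% with broad marks merged, 60.9% with 1 peak per cluster, 61.2% with KDM2B of q under 1e-05, 61.9% at fold 2.5 or above, 64.4% within 100 kb, 68.6% with no H3K27me3 within 10 kb, 75.3% with H2AK119ub of q under 1e-05, 89.8% with at least 50% covered and, by construction, 100% by summits.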

Other observations

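H2AK119ub-only peaks were also found at the starts of long non-coding RNA genes. Of 12569 such starts in the RefSeq promoter table, 2307 had a KDM2B peak within 1 kb and 478 an H2AK119ub-only peak, which is 20.7% of those with KDM2B. The highest KDM2B folds were 9.48 at LINC01138, 9.46 at SNX10-AS1, 8.86 at LOC124903662 and 8.69 at SEPTIN9-DT, whose peak is the same as that of SEPTIN9. SOCS3-DT had 8.07 and DANCR 7.93. How many of these starts face a coding gene was not counted, and a peak near both kinds of start cannot be assigned to either.

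The share of KDM2B peaks that were H2AK119ub-only differed between chromosomes. It was 31.8% on chromosome 17 (418 of 1315) and 28.2% on chromosome 19 (405 of 1437), and 9.23% on chromosome 18 (30 of 325) and 7.94% on chromosome 13 (30 of 378). Copy number in this line was not examined.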
